A study of Mus musculus with 2 samples.

Results

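The 9 genes described here encode enzymes that break down aromatic amino acids in liver: Tat, Hpd, Hgd and Fah of the tyrosine arm, and Tdo2, Afmid, Kmo, Kynu and Haao of the kynurenine arm of tryptophan. They were taken from the table by symbol, and all 9 were found among the 33224 gene symbols of the deposited table. Hepatic RNA was taken from regenerating livers 48 hr after partial hepatectomy (PH), the surgical removal of part of the liver, which the remaining lobes then grow back to replace. There was 1 library from wild-type (WT) mice and 1 from PPARbeta-null (KO) mice, which lack the nuclear receptor encoded by Ppard. Both groups were male C57BL/6 mice that had undergone PH, 4 months old by the labels and 3 to 5 months by the methods, and both drew on food and water freely. The sources used here do not say how the null allele was made or whether a library came from a single mouse or a pool. No unoperated liver was analysed here, so every value is a level at this time and not a response to PH.

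Tyrosine is broken down in hepatocytes in a fixed order. Tat removes the amino group, Hpd makes homogentisate, Hgd opens its ring, and Fah splits the product into fumarate and acetoacetate. Tryptophan enters the kynurenine pathway through Tdo2, Afmid releases kynurenine, and Kmo, Kynu and Haao carry it on toward the precursor of NAD or toward full oxidation. Inherited loss of Fah, Hgd or Tat causes tyrosinaemia or alkaptonuria in humans, and Tat and Tdo2 are textbook genes induced by glucocorticoids in liver.

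Levels are given as FPKM, a count of sequenced fragments divided by transcript length and by the depth of the library, so that levels of different genes compare per length. The table gives 1 FPKM per locus and library. With 1 library per genotype the spread between mice was not measured, so no p-value is given, and a gene counts as past the line when its FPKM differed by more than 1.5-fold. The 95% interval of a ratio is an exact (Clopper-Pearson) binomial interval of fragments estimated from the FPKM, and covers counting error only. Depth was alike, since 1 fragment on 1 kb of transcript stood for 0.0189 FPKM in WT and 0.0190 in KO. The deposited header names a different sequencing lane for each library, so lane and genotype cannot be told apart. Gene symbols whose FPKM averaged 1 or more over both libraries are called expressed. There were 11723 of them, 75.6% had less in KO, and their median log2 KO/WT was -0.24, which is 1.18-fold. Values centred on that median are therefore given beside those as deposited. The targeted gene, Ppard, stood at 2.67 FPKM in WT and 2.42 in KO. Their ratio was 1.10 (counting interval 0.963 to 1.26), so the whole-locus level could not check the genotypes.

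All 9 genes had rows at high levels in both libraries, though the row of Afmid is shared with Syngr2, a neighbouring gene. Hpd, at 1125 FPKM in WT and 881 in KO, was the most abundant in each, and Afmid, at 69.8 and 36.5, the least. Tat was lower in KO by 1.87-fold and the Afmid row by 1.91-fold, and these 2 were the only members past 1.5-fold, or Tat alone where rows that name several symbols are left out. No member was past 1.5-fold higher, and none reached 2-fold. Of all expressed genes 19.9% were past 1.5-fold lower, 4.20% past it higher and 8.69% past 2-fold lower, so 2 of 9 lay near the background. As deposited, 7 members were lower and 2, Tdo2 and Kynu, higher in KO. The median log2 KO/WT of the 9 was -0.29, beside -0.24 over all expressed genes.

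After centring, Tat and Afmid were still past 1.5-fold lower, at 1.58-fold and 1.62-fold, while 12.0% of expressed genes were past it lower and 7.39% higher. The centred median of the 9 was -0.05, with 5 lower and 4 higher. Only Tat, Hpd, Fah, Afmid and Haao were lower, and only Tdo2 was higher, under each of the 4 scalings tried. Hgd and Kmo turned to higher in KO with centring and with equal upper quartiles, and Kynu turned to lower with equal sums of FPKM. Among the 1488 gene symbols that averaged 50 FPKM or more, as every member did, 13.3% were past 1.5-fold lower and 9.27% higher as deposited. Their median log2 KO/WT was -0.19.

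**Figure D1:**
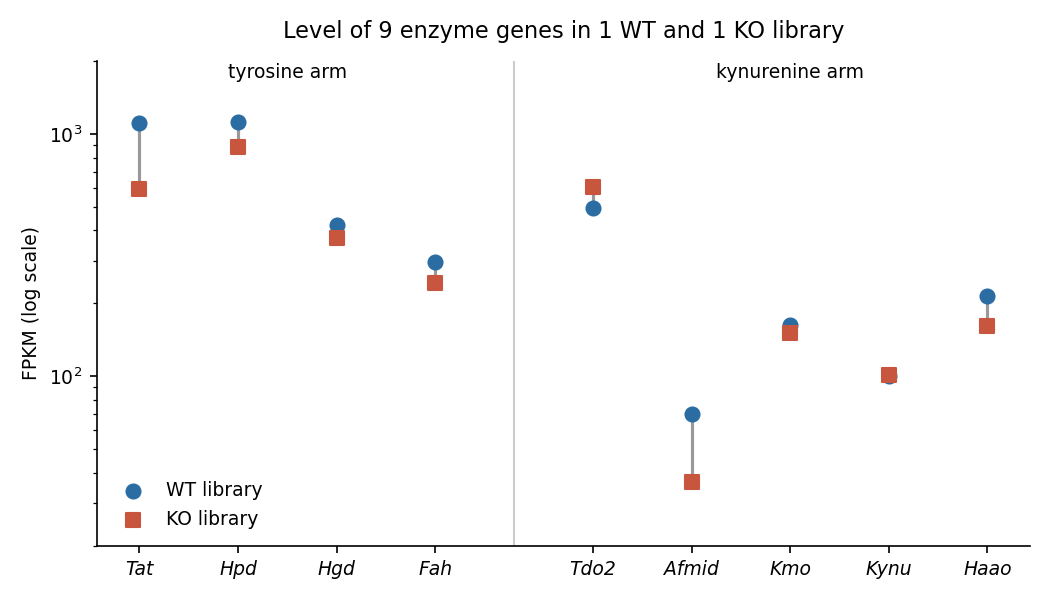
FPKM (log axis) of the 9 enzyme genes in the WT library (circles) and the KO library (squares), 1 library each, with a line joining the 2 values of a gene. Tat (1115 and 595) and Afmid (69.8 and 36.5) have the longest lines, and Tdo2 (497 and 607) is the gene whose square stands clearly above its circle.

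Tat and Tdo2, the entry enzymes of the 2 arms, went in opposite directions. Their upstream sequences are shown for that reason. They are the 250 bases before the start of each gene in RefSeq on GRCm38.p6, at chr8:109990186-109990435 on the plus strand for Tat and chr3:81975729-81975978 on the minus strand for Tdo2, written 5′ to 3′ along the gene. Capitals mark TATAAA and CCAAT, the latter also where it reads as ATTGG from the opposite strand.

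Tat: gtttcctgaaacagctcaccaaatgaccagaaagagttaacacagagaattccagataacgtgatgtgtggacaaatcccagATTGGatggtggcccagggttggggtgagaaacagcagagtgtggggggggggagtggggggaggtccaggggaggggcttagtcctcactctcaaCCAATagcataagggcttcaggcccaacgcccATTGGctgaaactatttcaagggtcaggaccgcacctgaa

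Tdo2: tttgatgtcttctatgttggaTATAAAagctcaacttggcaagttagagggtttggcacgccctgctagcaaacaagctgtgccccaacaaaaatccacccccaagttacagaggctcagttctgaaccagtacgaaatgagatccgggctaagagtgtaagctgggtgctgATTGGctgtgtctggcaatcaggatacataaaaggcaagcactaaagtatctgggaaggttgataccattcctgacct

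Positions are counted back from the start, with -1 as the last base shown, and name the first base of a match. Tat holds CCAAT or ATTGG at -168, -72 and -40, and no TATAAA. Tdo2 holds TATAAA at -229 and ATTGG at -78. Promoter windows of 300 bases, 250 before and 50 after the start, were listed for 8 of the 9 members, Kynu being the other. On either strand CCAAT was found in 3 of these 8 (Tat, Tdo2 and Hgd), beside 37.4% of all 32851 promoters, and TATAAA in 2 (Tdo2 and Hgd), beside 13.6%. The DR1 element bound by PPAR with its partner RXR, searched as 2 copies of AGGTCA with 1 base between them, matched no member and 0.0396% of all promoters. The palindromic glucocorticoid response element, AGAACA and TGTTCT with 3 bases between them, matched no member and 0.00913% of promoters. Nor did a member hold TTTCCCGC, TTTGGCGC, TTTCGCGC or TTTGCCGC, forms of the E2F site that 1.07%, 0.514%, 0.323% and 0.441% of promoters hold. The absence of a match says only that these exact letters are not in the window.

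In the tyrosine arm the FPKM summed over the 4 enzymes was 2958 in WT and 2091 in KO. WT held 1.42 times as much, with a median log2 KO/WT of -0.32. Tat, tyrosine aminotransferase, which sets the pace of the arm, is encoded on chromosome 8 (plus strand, 112514337 to 112523703, NCBIM37) with 12 exons in its longest coding transcript. Its level was 1115 FPKM in WT and 595 in KO. The WT/KO ratio was 1.87 (counting interval 1.86 to 1.89), and 9.78% of expressed genes had a lower log2 KO/WT. This was the largest difference of the arm and the only member of it past 1.5-fold.

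Hpd, 4-hydroxyphenylpyruvate dioxygenase, is encoded on chromosome 5 (minus strand, 123621816 to 123632734). Its FPKM was 1125 in WT and 881 in KO. The ratio was 1.28 (1.26 to 1.29), which centring brought to 1.08. The authors' status for this locus is FAIL, meaning that their comparison could not be completed there, and the locus is wide and holds 8 other rows. The most abundant of these, Psmd9, a proteasome chaperone, was at 13.2 and 11.7 FPKM, far below Hpd. A noncoding gene that overlaps Hpd, Gm17627, shares 0 of its exon bases and was at 0.0731 and 0.0624.

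Hgd, homogentisate dioxygenase (chromosome 16, plus strand, 37580239 to 37632106), stood at 422 FPKM in WT and 372 in KO. That is a ratio of 1.13 (1.12 to 1.15), and after centring the gene was 1.04-fold higher in KO. Fah, fumarylacetoacetate hydrolase and the last enzyme of the arm (chromosome 7, minus strand, 91733669 to 91755232), stood at 296 and 242 FPKM, a ratio of 1.22 (1.20 to 1.25). The ratio was 1.03 after centring. The 3 members after Tat thus lay within 1.13-fold to 1.28-fold as deposited, against 1.87-fold for Tat itself. Gstz1, which acts between Hgd and Fah and is not a member, had a ratio of 1.01.

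In the kynurenine arm the summed FPKM of the 5 rows was 1045 in WT and 1057 in KO. This includes the joint Afmid and Syngr2 row, so it is not the level of the enzymes alone. The median log2 KO/WT was -0.11 as deposited and 0.13 after centring. The near equal sums hide members that went apart. Tdo2, tryptophan dioxygenase, opens the indole ring and commits tryptophan to the pathway in liver. The gene (chromosome 3, minus strand, 81761012 to 81780124) had 497 FPKM in WT and 607 in KO. The KO/WT ratio was 1.22 (counting interval 1.21 to 1.23), or 1.44 after centring, and 91.5% of expressed genes had a lower log2 KO/WT.

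The neighbour of Tdo2 on the side of its start, Accn5, a channel of the acid-sensing family, begins 6088 bp away on the opposite strand. Accn5 was at 1.88 FPKM in WT and 10.6 in KO, which was 5.67-fold higher in KO (counting interval 4.82 to 6.73). Ctso, a cathepsin gene that lies 365 bp beyond the other end, was at 15.6 and 15.1. The 2 neighbours of Tdo2 thus stood apart in their ratios, and Accn5 was farther from 1 than Tdo2.

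Afmid, the formamidase that frees kynurenine from its formyl group, was at 69.8 FPKM in WT and 36.5 in KO. The WT/KO ratio of 1.91 (counting interval 1.84 to 1.98) was the largest of the 9. This value belongs to a row that also names Syngr2, a synaptogyrin found in many cell types, so the FPKM is that of a joint locus and Afmid alone was not measured. Without rows that name several symbols Afmid had no value, and Tat was then the only member past 1.5-fold.

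The locus holds more than Afmid and Syngr2. Afmid spans 117670982 to 117701222 on the plus strand of chromosome 11 (NCBIM37) because a read-through transcript, Afmid-004, begins at the start of Syngr2 (117670982 to 117675597). The coding transcript Afmid-001 begins at 117687238. Tk1, thymidine kinase of the DNA salvage pathway, runs on the minus strand from 117676840 to 117687406. Its start therefore lies 169 bases inside Afmid-001, and the first exons of the 2 genes share 83 bases. In RefSeq on GRCm38.p6 the starts, 117825919 for Afmid and 117826014 for Tk1, also overlap, by 96 bases.

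Tk1 has a row of its own, with 27.9 FPKM in WT and 2.32 in KO, 12.0-fold lower in KO (counting interval 10.7 to 13.6). The nearest gene beyond the end of Afmid, Birc5, the survivin gene expressed in dividing cells, begins 9343 bp away and stood at 25.5 and 0.111 FPKM. Both of these proliferation genes thus differed far more than the Afmid and Syngr2 row. The kit named in the labels does not mark strand, so reads from the bases that Afmid and Tk1 share cannot be told apart. These bases are 2.21% of the 3753 annotated exon bases of Afmid. The part of Tk1 and Syngr2 in the Afmid value was not tested.

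**Figure D2:**
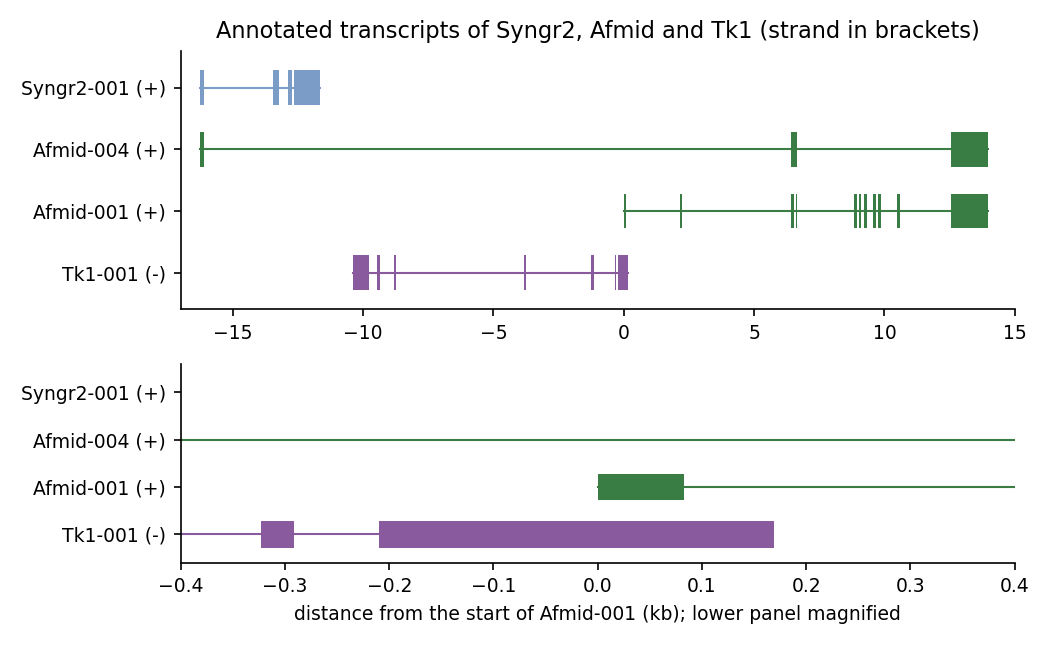
Annotated transcripts of Syngr2, Afmid and Tk1 (GENCODE vM1), drawn to scale as exons (boxes) and introns (lines) against the distance in kb from the start of Afmid-001, with the region around that start magnified below. The first exon of Tk1 reaches 169 bases past the start of Afmid-001 and covers the whole first exon of Afmid-001, 83 bases.

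Kmo, kynurenine monooxygenase (chromosome 1, plus strand, 177550512 to 177592247), was at 162 FPKM in WT and 150.3 in KO. The WT/KO ratio was 1.08 (1.06 to 1.10). After centring it was 1.09-fold higher in KO. Fh1, fumarate hydratase of the citric acid cycle, overlaps the start of Kmo on the opposite strand and had nearly the same levels, 163 and 148 FPKM. The overlap spans 5255 bp, but the 2 genes share 0 annotated exon bases.

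Kynu, kynureninase (chromosome 2, plus strand, 43410849 to 43538235), was the member nearest to equality, with 100.5 FPKM in WT and 101 in KO. Its KO/WT ratio of 1.01 had a counting interval of 0.985 to 1.03, which holds equality but covers counting error only. After centring Kynu was 1.19-fold higher in KO, so the reading depends on the scaling. Haao, 3-hydroxyanthranilate dioxygenase, makes the compound that closes to quinolinate (chromosome 17, minus strand, 84230696 to 84246130). Haao stood at 214 and 162 FPKM, a WT/KO ratio of 1.33 (1.29 to 1.36) that centring brought to 1.12. After Tat and Afmid this was the largest ratio among the members lower in KO.

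**Figure D3:**
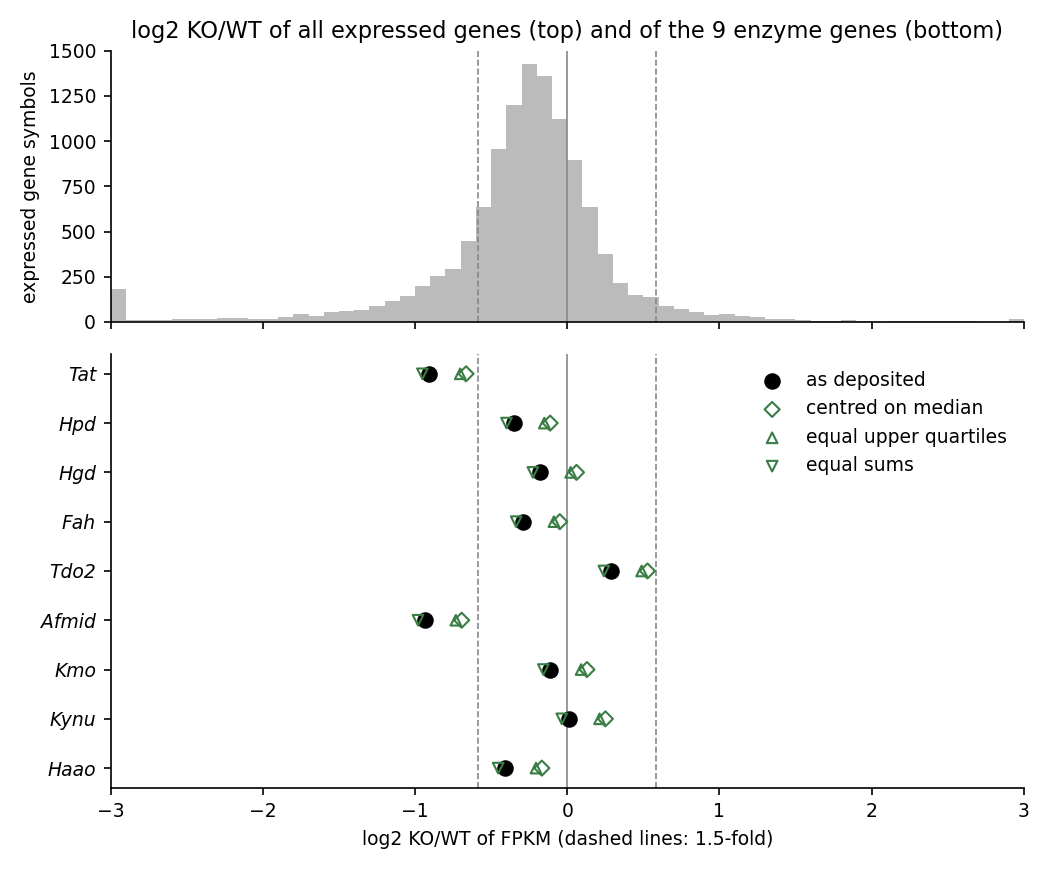
Top, number of expressed gene symbols by log2 KO/WT of FPKM, with genes beyond the axis counted in the outermost bars. Bottom, log2 KO/WT of each enzyme gene as deposited and under 3 other scalings, with dashed lines at 1.5-fold; Tat (-0.91) and Afmid (-0.93) lie beyond the left line under each scaling, Tdo2 (0.29) lies right of 0 under each, and the other 6 lie between the dashed lines.

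Ratios of levels within a library do not depend on how the libraries were scaled. Tat was 2.24 times Tdo2 in WT and 0.981 times Tdo2 in KO. The order of the members by level was therefore Hpd, Tat, Tdo2, Hgd, Fah, Haao, Kmo, Kynu and Afmid in WT, and in KO it differed only in that Tdo2 stood above Tat. The closest neighbours were Hpd and Tat in WT (Tat to Hpd 0.991) and Tdo2 and Tat in KO, and without replicates it was not measured whether such neighbours differ beyond the spread between mice.

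Along the tyrosine arm Tat stood at 0.991 of the level of Hpd in WT and 0.676 in KO. Hpd was 2.67 and 2.37 times Hgd, and Hgd 1.43 and 1.54 times Fah, in WT and KO. In the kynurenine arm Tdo2 was 7.12 times the Afmid and Syngr2 row in WT and 16.6 times in KO. The steps farther on moved less, with Tdo2 at 3.07 and 4.04 times Kmo, Kmo at 1.61 and 1.49 times Kynu, and Kynu at 0.468 and 0.626 times Haao. Among these ratios the widest shifts were those of Tat against Tdo2, which lie in different arms, and of Tdo2 against the joint Afmid and Syngr2 row.

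Other genes of phenylalanine and tyrosine breakdown, from a list of 12, were lower in KO in 11 of the 11 expressed, and 3 were past 1.5-fold. After centring 5 were lower and 1 was past 1.5-fold, with a median log2 KO/WT of -0.22 as deposited and 0.02 centred. Among all expressed genes 75.6% were lower and 19.9% past 1.5-fold lower as deposited, and 12.0% were past it after centring. Qdpr, which restores the cofactor tetrahydrobiopterin, had 231 FPKM in WT and 113 in KO, 2.04-fold lower, and was the gene still past 1.5-fold after centring. Il4i1, an amino acid oxidase whose row also names Nup62, had 10.2 and 6.18 and was past 1.5-fold as deposited. Gstz1, the enzyme between Hgd and Fah, differed little, with 272 and 270 FPKM, and Pcbd1, which recycles the same cofactor, had 232 and 189.

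Of 13 other genes of tryptophan breakdown 11 were expressed and all 11 were lower in KO as deposited, 4 of them past 1.5-fold. The median log2 KO/WT was -0.35, or -0.11 after centring, when 7 were lower and 2 past 1.5-fold. The shares of all expressed genes past 1.5-fold lower were 19.9% as deposited and 12.0% after centring. Acmsd, the decarboxylase that steers the product of Haao away from NAD, had 72.0 FPKM in WT and 31.2 in KO, 2.31-fold lower. Qprt, which takes quinolinate to NAD synthesis, had 82.8 and 51.5, a ratio of 1.61. Ccbl1 and Ccbl2, transaminases that make kynurenic acid, had ratios of 1.78 and 1.67. Got2 (209 and 193 FPKM) and Gcdh (171 and 155) were the most abundant and were not past the line. Ido1, the dioxygenase of immune cells that opens tryptophan as Tdo2 does, was listed at 0 in WT and at 0.00998 FPKM in KO. Its liver paralog Ido2 had 16.9 and 14.2 FPKM. Among the genes of this step Tdo2 thus had by far the highest mRNA level in both libraries.

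In the amine branch Th, Tph1 and Tph2, which start catecholamine and serotonin synthesis, were listed at 0 in both libraries, and 1 of the 3 expressed genes, Ddc, the aromatic amino acid decarboxylase, was past 1.5-fold lower (42.0 and 24.1 FPKM, a ratio of 1.74). Maob and Maoa, which oxidise amines, had 66.3 and 47.6 FPKM and 2.97 and 2.18. After centring none of the 3 was past the line, with all 3 lower and a median of -0.24. Of 7 listed carriers of aromatic amino acids 4 were expressed and 2 were past 1.5-fold lower, neither of them after centring. These were Slc43a1 (ratio 1.63) and Slc43a2 (1.51, at 1.22 and 0.809 FPKM). The shares for all expressed genes, to set beside both lists, were 19.9% as deposited and 12.0% after centring. Slc16a10, an aromatic amino acid carrier and the most abundant of the list, had 30.9 FPKM in WT and 33.3 in KO, and Slc3a2, the heavy chain of several carriers, had 14.6 and 11.6. Slc7a5, also among the 7, had no row that could be used, so whether it was expressed is not known here.

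Other amino acid pathways of liver gave a range in which the 9 enzymes lay near the branched-chain genes. Of 7 urea cycle genes 4 were past 1.5-fold lower, with a median log2 KO/WT of -0.82. Ass1, argininosuccinate synthase, had 2672 FPKM in WT and 983 in KO, 2.72-fold lower, and Asl, the enzyme after it, and Cps1, which starts the cycle, had ratios of 2.21 and 2.15. Arg1, which releases urea, had a ratio of 1.77, and Slc25a15, the ornithine carrier, was higher in KO at 163 and 233 FPKM. After centring 3 urea cycle genes were past the line lower and 1, Slc25a15, higher, and the median was -0.58. For all expressed genes the shares were 19.9% lower and 4.20% higher as deposited, and 12.0% and 7.39% after centring.

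Of 21 genes of branched-chain amino acid breakdown 20 were expressed, and 2 were past 1.5-fold lower, Ivd (1.73) and Mccc1 (1.52), neither of them after centring. Their median was -0.25, beside -0.29 for the 9 enzymes. Abundant genes of this list lay on both sides, with Hibadh at 136 FPKM in WT and 102 in KO, Aldh6a1 at 94.8 and 101, and Bckdha at 66.3 and 72.4. Of 23 genes of other amino acid breakdown 9 were past 1.5-fold lower and 1 higher, with a median of -0.49. After centring 4 were past it lower and 2 higher, and the median was -0.25. Gpt, counted as lower both times, has a row that also names Ppp1r16a. Cth, which makes cysteine, had 667 FPKM in WT and 136 in KO, 4.91-fold lower. Gls2, the liver glutaminase, and Sds, which deaminates serine, had ratios of 2.91 and 2.12. Cdo1, which oxidises cysteine, was 1.73-fold higher in KO, at 419 and 725 FPKM, and the abundant Oat (1179 and 1418) and Glud1 (455 and 571) were also higher. The shares of all expressed genes past 1.5-fold were 19.9% lower and 4.20% higher as deposited, and 12.0% and 7.39% after centring. The lists were not tested against each other.

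**Figure D4:**
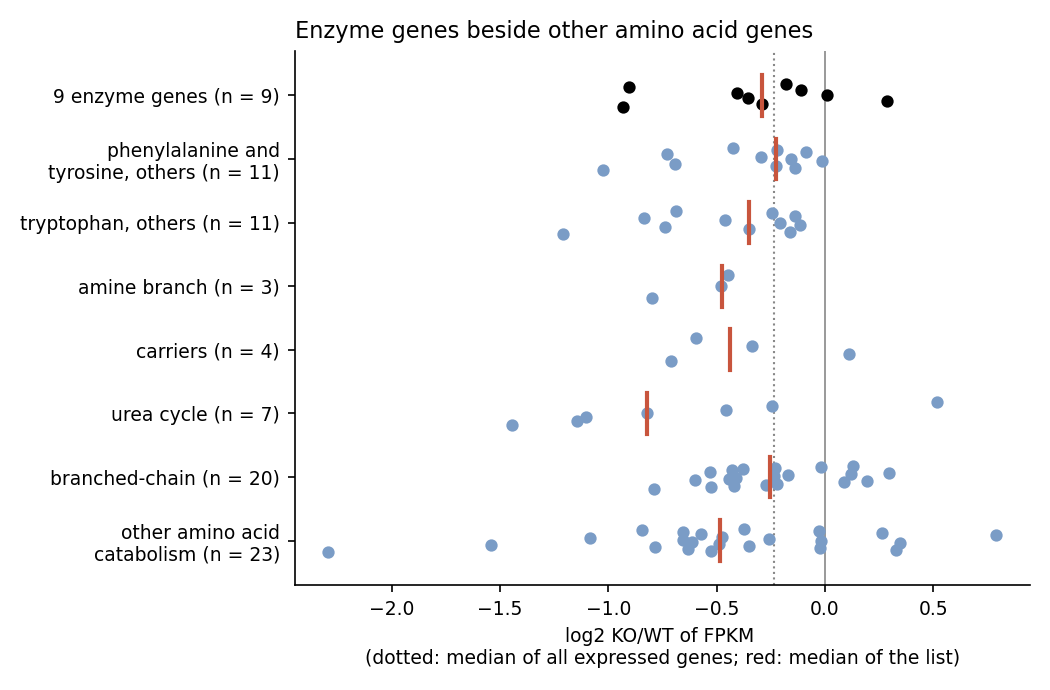
log2 KO/WT of FPKM of each expressed gene (points) in the 9 enzyme genes and in 7 other lists of amino acid genes, with the median of each list (red bars, with 0.1 FPKM added) and of all expressed genes (dotted line, -0.24). The median of the 9 enzymes (-0.29) lies near the dotted line, as does that of branched-chain breakdown (-0.25), while that of the urea cycle (-0.82) lies farthest left.

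Hepatocyte markers had the highest sum of the marker lists in both libraries, and most expressed markers of other liver cells were lower in KO. The 8 hepatocyte markers summed to 21200 FPKM in WT and 24710 in KO, with 6 higher and 2 lower in KO, and 7 higher and 1 lower after centring. Of these 8, 1 was past 1.5-fold higher and 1 past it lower as deposited, or 2 and 1 after centring. Beside Kmo and Kynu, which macrophages also express, 7 of 8 macrophage markers were past 1.5-fold lower in KO, with a sum of 76.4 FPKM in WT and 44.2 in KO, and Marco was the exception at 6.58 and 7.37. Of 6 endothelial markers 5 were past 1.5-fold lower (sums 48.5 and 34.6), of 6 stellate markers 3 (100.3 and 61.8), and of 5 cholangiocyte markers 1 of the 3 expressed (29.8 and 25.7). The 3 expressed of 6 neutrophil markers were all past it (sums 14.8 and 7.87), and Ly6g and Mpo were listed at 0. Lymphocyte markers summed to 0.677 and 0.372 FPKM and kidney markers, of which Kap and Umod were at 0, to 0.222 and 0.0668. After centring, the counts past 1.5-fold lower were 5 for macrophage, 3 for endothelial, 2 for stellate, 2 for neutrophil and 1 for cholangiocyte markers. Of all expressed genes 19.9% were past 1.5-fold lower as deposited and 12.0% after centring. Among the stellate markers the collagen genes Col1a1 (8.56 FPKM in WT and 1.75 in KO) and Col3a1 (14.5 and 3.18) stood farthest apart. The part of these cells in the enzyme levels was not tested, and in bulk tissue fewer cells of a type and less RNA per cell cannot be told apart. Kmo and Kynu stood at 150.3 and 101 FPKM in KO, where the 8 macrophage markers summed to 44.2. Marker levels do not bound what a cell type adds to another gene, so the part of macrophages in Kmo and Kynu was not tested by this.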

How the data were processed

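Hepatic RNA of 1 WT and 1 KO library was prepared with a TruSeq kit and sequenced on an Illumina instrument. The methods describe single end reads and the labels paired end reads. Per the labels and methods, the authors aligned reads to mm9 (NCBI37) with TopHat 2.0.0, assembled transcripts with Cufflinks 1.3.0 and used Cuffdiff to estimate the deposited FPKM, 1 per locus and library. Whether quartile scaling was used is not given in the sources used here. The deposited table also holds the authors' fold change, statistic, p-value and q-value per locus, which were not used.

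Of 38016 rows, 21 marked HIDATA (a failed estimate at high depth) were left out and 2302 had no symbol. Rows of a symbol were summed, and the 850 rows naming several symbols gave each the joint value. Every ratio used the deposited FPKM unscaled unless it is given as centred or under another scaling. Medians of lists used log2 with 0.1 FPKM added, which understates the change of low genes, over genes that averaged 1 FPKM or more. Centring took -0.24, the median log2 KO/WT of expressed genes, off each log2 ratio.

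The deposited files used here hold no counts. Depth came from the lowest values of single-exon genes, which pile up at multiples of 1 fragment (650 values in WT and 661 in KO), and fragments from the FPKM, that depth and the longest annotated transcript, from 4477 for Afmid in KO to 139976 for Tat in WT. This is an estimate, since the fit of an FPKM shares reads between transcripts. The step was tested on simulated data. No test across samples was possible with 1 library per genotype.

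Positions are 1-based, from GENCODE vM1 on NCBIM37, and promoters from RefSeq on GRCm38.p6. No position was converted between builds. Members and lists were chosen with earlier results of these data known. Named are every member, its neighbours and overlapping genes where a result turns on them, and in each list of pathway or glucocorticoid-induced genes the 3 largest folds past 1.5 in each direction and the 3 highest mean FPKM among expressed genes. Marker lists are given as counts and sums. A result that the rule would name is not reported here. Some genes were named beyond that rule and were chosen after their values were seen. They are Qprt, Ido1, Ido2, Slc25a15, Gpt, Marco, Col1a1, Col3a1, Tsc22d3, Fkbp5, Pck1 and those listed at 0. Alternatives covered the fold, the scaling, the filter, the pseudocount and the handling of rows. The tools were matplotlib 3.10.9, scipy 1.17.1, pandas 2.3.3 and numpy 2.4.6 under Python 3.11.15.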

Additional observations from a re-analysis of the deposited data

How the results depend on the processing

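Leaving out a library was not possible, since each genotype has only 1. No paired analysis was possible because there is 1 library on each side and they share no label that links them. Members past 1.5-fold lower in KO numbered 2 under each scaling, with the highest row of each symbol and with no filter on low FPKM, 1 with rows naming 1 symbol only, where Afmid has no value, and 0 with a 2-fold line. Members past the line higher numbered 0 under each setting run.

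Over the 9 genes the median log2 KO/WT, -0.29 as deposited, was -0.0487 with centring, -0.0872 with equal upper quartiles, -0.335 with equal sums of FPKM and -0.234 with rows naming 1 symbol. For the tyrosine arm (-0.32 as deposited) the first 3 of these gave -0.0804, -0.119 and -0.367. For the kynurenine arm (-0.11 as deposited) they gave 0.13, 0.0913 and -0.157, and rows naming 1 symbol gave -0.0502. The sign of this arm thus depends on the scaling. The scalings took -0.24 (centring), -0.20 (upper quartiles) and 0.0461 (sums) off each log2 ratio. With 1 FPKM added in place of 0.1 the 3 medians were -0.288, -0.320 and -0.110. Members lower and higher numbered 5 and 4 with centring and upper quartiles and 8 and 1 with equal sums. The background of genes averaging 50 FPKM or more and the centring of the other lists were chosen after seeing the data.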

Other observations

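Since Tat and Tdo2 are induced by glucocorticoids in liver, 12 other genes known for this induction were listed beside them. They went both ways, with 4 past 1.5-fold lower and 4 past it higher in KO, or 3 and 5 after centring. The median log2 KO/WT was 0.06, or 0.30 after centring. Of all expressed genes 19.9% were past 1.5-fold lower and 4.20% past it higher, or 12.0% and 7.39% after centring. Per1, a clock gene, was 2.46-fold lower in KO (10.6 and 4.31 FPKM), though the authors' status for its locus is FAIL. Dusp1, a MAP kinase phosphatase, was 2.01-fold lower (10.6 and 5.25 FPKM) and Zbtb16, a zinc finger repressor, 1.80-fold lower (12.3 and 6.82 FPKM). Tsc22d3, an anti-inflammatory leucine zipper gene, was 1.71-fold lower (48.7 and 28.5 FPKM), or 1.45-fold after centring.

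Lcn2, an iron-binding acute phase gene, was 3.59-fold higher in KO (538 and 1935 FPKM), and Igfbp1, which binds insulin-like growth factors, 3.33-fold higher (108 and 360 FPKM). The metallothioneins Mt2 and Mt1 were 1.70-fold and 1.67-fold higher, at 912 and 1545 and at 984 and 1643 FPKM. Fkbp5, a chaperone of the receptor, was 1.38-fold higher (25.6 and 35.5 FPKM), or 1.64-fold after centring. Pck1, the entry enzyme of gluconeogenesis, was at 851 and 817 FPKM. Nr3c1, the glucocorticoid receptor, had 12.0 FPKM in WT and 10.0 in KO, 1.20-fold lower.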
